A study of Mus musculus with 28 samples.

Results

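The major histocompatibility complex (MHC) class I pathway was followed in nuclear RNA of mouse motor cortex through 5 genes: B2m, the light chain shared by class I molecules, the heavy chains H2-D1 and H2-K1, the peptide transporter subunit Tap1, and Tapbp, which encodes tapasin. These are 5 of the 41549 genes in the deposited count tables. They were chosen by measured values, with earlier results of the same tables known: B2m had led the comparison of the g4 vector with the empty vector in HA-negative nuclei, and the other 4 genes act with it in class I antigen presentation. The values of that comparison are therefore given as a description, with no test.

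Class I molecules present peptides from inside the cell to CD8 T cells. Cytosolic peptides are carried into the endoplasmic reticulum by the Tap1/Tap2 transporter, tapasin holds the empty heavy chain next to the transporter, and the loaded heavy chain travels to the cell surface only with beta-2 microglobulin, the B2m product, bound to it. In brain, class I genes are known for high expression in microglia and endothelial cells and lower expression in neurons, for induction by interferons, and for roles in synaptic plasticity.

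The series holds 28 libraries from 7 mice, numbered 17 to 23, each of which received a Cas9 vector delivered by adeno-associated virus in both motor cortices: AAV-Cas9-miR-124-empty on the left and AAV-Cas9-miR-124-g4 on the right. All 4 groups carry a Cas9 vector, and vector and hemisphere coincide in every animal, so that they cannot be told apart. Nuclei of fixed tissue were stained with an anti-HA antibody and sorted. HA-positive nuclei are those the labels call Cas9 positive. Each combination of vector (empty or g4) and fraction (HA-positive or HA-negative) has 7 libraries, which makes 4 groups. RNA input was 40 to 2000 pg. The labels do not state strain, sex, age, time after injection, viral serotype or the promoter driving Cas9.

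Library totals ran from 248612 to 902944 counts and detected genes from 8687 to 13668. Of the 4 libraries under 10000 genes, 3 were empty HA-positive (animals 17, 21 and 22) and 1 was g4 HA-positive (animal 18). The g4 HA-positive library of animal 19 stood apart: it held 644 CPM (counts relative to the TMM-scaled library size) of Xist together with 48.0 CPM of 4 Y-linked genes, and 473 CPM of 18 microglia markers against 2.55 to 50.3 CPM in the other 13 HA-positive libraries. For each of the 5 genes the mean of its group is given with and without it. That library aside, Xist was 0 in animals 17 to 20 and ran from 445 to 1349 CPM in animals 21 to 23. The Y-linked sum ran from 102 to 187 CPM in animals 17 to 20 and was at most 3.78 CPM in animals 21 to 23. Inhibitory neuron markers were higher in HA-positive nuclei (10 of 10 tested genes called) and microglia, oligodendrocyte and oligodendrocyte precursor markers lower (11 of 11, 10 of 11 and 5 of 5 called), in the comparison of both vectors together. Over all 7197 genes tested there, 6.63% were called as higher and 7.04% as lower. The latter 3 lists hold 18, 12 and 7 genes. Markers low in HA-positive nuclei passed the low-count filter through the HA-negative groups, which favours calls as lower.

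B2m (ENSMUSG00000060802) lies on chromosome 2 of GRCm38 from 122147686 to 122153083 on the plus strand, with 4 exons that span 860 bases. The other 4 genes lie within 1351.6 kb of chromosome 17: Tapbp (ENSMUSG00000024308) from 33915899 to 33929292, H2-K1 (ENSMUSG00000061232) from 33996017 to 34000347 on the minus strand, Tap1 (ENSMUSG00000037321) from 34187553 to 34197225, and H2-D1 (ENSMUSG00000073411) from 35262730 to 35267499. Neither miR-124 site searched, GTGCCTT nor TGCCTTA, occurs in the longest annotated 3' untranslated region of any of the 5, of 448 to 1141 bases. Over 21173 genes, 20.6% hold at least 1 in theirs, a share not matched for length. The absence from 5 genes is therefore not read as a result.

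The promoters of the light chain and of both heavy chains are shown because these 3 genes share promoter letters and are the light and heavy chains of 1 complex. Each runs from 250 bases before to 50 bases after the RefSeq start on GRCm38.p6, 5' to 3' along the gene: B2m at chr2:122147437-122147736 (plus strand), H2-D1 at chr17:35262844-35263143 (plus strand) and H2-K1 at chr17:34000298-34000597 (minus strand). Capitals mark matches, on either strand, to a tandem of the letters that interferon regulatory factors bind (GAAA, any 2 bases, GAAA), a kappaB site (GGGA, any 4 bases, CC), the core of a cyclic AMP response element (TGACG, called the CRE core) and a CCAAT box (ATTGG).
B2m: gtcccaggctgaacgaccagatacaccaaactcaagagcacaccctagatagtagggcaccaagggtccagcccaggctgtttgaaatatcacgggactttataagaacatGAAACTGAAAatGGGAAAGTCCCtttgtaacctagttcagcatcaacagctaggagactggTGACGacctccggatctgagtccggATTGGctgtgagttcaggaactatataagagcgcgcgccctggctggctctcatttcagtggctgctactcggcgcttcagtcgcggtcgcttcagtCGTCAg
H2-D1: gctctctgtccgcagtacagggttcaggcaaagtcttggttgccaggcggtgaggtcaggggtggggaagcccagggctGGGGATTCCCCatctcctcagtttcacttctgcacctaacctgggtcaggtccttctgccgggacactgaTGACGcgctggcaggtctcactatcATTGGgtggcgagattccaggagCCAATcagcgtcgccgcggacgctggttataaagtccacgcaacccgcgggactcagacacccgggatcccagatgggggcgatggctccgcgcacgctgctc
H2-K1: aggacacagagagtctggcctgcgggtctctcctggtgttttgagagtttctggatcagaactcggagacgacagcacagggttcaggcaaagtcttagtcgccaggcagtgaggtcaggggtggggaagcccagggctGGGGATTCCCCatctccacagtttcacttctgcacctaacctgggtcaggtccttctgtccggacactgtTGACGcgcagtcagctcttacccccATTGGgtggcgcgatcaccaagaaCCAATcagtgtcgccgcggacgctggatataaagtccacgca
In all 3, the CRE core is followed by a CCAAT box after 20 bases, starting 78 bases before the RefSeq start in B2m, 101 in H2-D1 and 41 in H2-K1. Of 27025 RefSeq promoters of the same length, 0.463% hold this pair with 15 to 25 bases between. The kappaB letters match in all 3 as well, on overlapping positions of both strands, and in 20.5% of all promoters. The exact letters of the interferon regulatory factor tandem match only in B2m among the 5 genes, 139 bases before the start. They match in 3.49% of all promoters. Looser forms of this tandem were not searched, so the lower-case letters of the other promoters may still hold such a site. Taken singly, the CRE core matches in 21.0% and the CCAAT box in 37.9% of all promoters. The promoters of Tap1 and Tapbp hold neither the pair nor the kappaB letters. H2-D1 and H2-K1 share an unbroken stretch of 47 bases, and the longest stretch H2-K1 shares with B2m is 8 bases. A match describes the letters in this window and is not evidence of a bound factor.

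**Figure D1:**
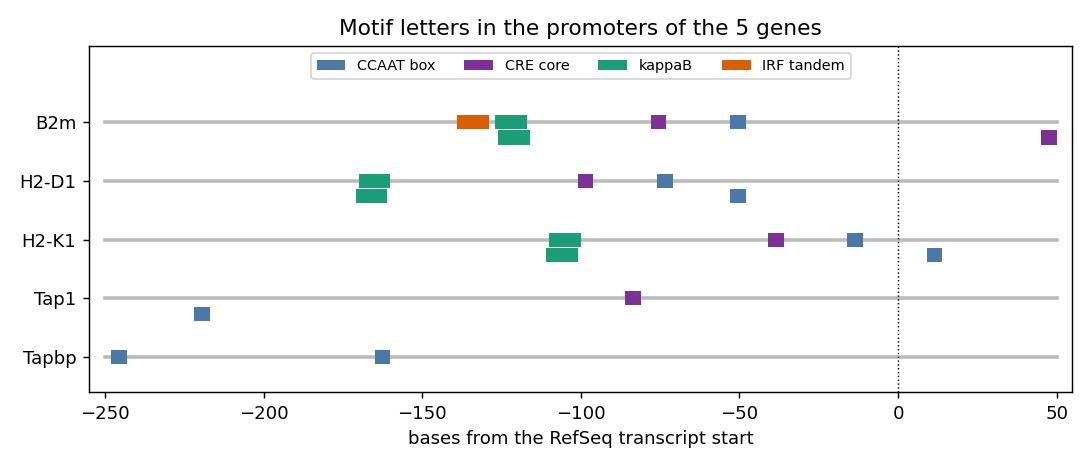
Positions of the 4 letter motifs in the promoters of the 5 genes, in bases from the RefSeq start on the x axis. Marks on the line are on the gene's strand and marks under it on the opposite strand. B2m, H2-D1 and H2-K1 hold a CRE core followed by a CCAAT box 20 bases on.

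B2m, the light chain, was the most abundant of the 5 and the only one with enough counts to pass the low-count filter in any comparison. In HA-negative nuclei with the g4 vector it had 62.1, 62.8, 41.3, 35.9, 66.8, 60.4 and 77.5 CPM in animals 17 to 23. In HA-negative nuclei of the empty-vector hemisphere of the same animals it had 24.8, 16.9, 14.1, 28.1, 32.1, 32.2 and 27.1 CPM. The lowest g4 library, of animal 20, was above the highest empty library, so the groups did not overlap. The g4 side was higher in 7 of 7 animals. B2m was chosen by this contrast, which favours such a separation. How many of all genes tested there separate likewise was not counted. The ratio within an animal ran from 1.28 in animal 20 to 3.71 in animal 18.

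These levels rested on 232 counts in the g4 and 103 counts in the empty libraries. The group means were 58.1 ± 14.5 and 25.0 ± 7.07 CPM (SD, n = 7 each), and the edgeR log2 fold change was 1.18 ± 0.27 (SE), or 2.27-fold. This is the contrast that led to the choice of the genes, so no test is given and nothing is read from it. Over all 6262 genes tested there, edgeR called 0 (0%), with 236 at an unadjusted p under 0.05, DESeq2 called 1 and limma's voom 0. Summed microglia markers, 18 of 18 detected in both groups, ran from 543 to 850 CPM in the g4 and from 352 to 783 CPM in the empty HA-negative libraries, and their part in the B2m difference was not tested. Their group means differed 1.21-fold, beside 2.32-fold for B2m. Oligodendrocyte precursor markers were higher with g4 in 6 of 7 animals, with means of 216 ± 39.7 and 162 ± 38.3 CPM (SD). In sorted bulk nuclei, fewer cells of a type and less RNA per cell cannot be told apart.

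In HA-positive nuclei, whose libraries played no part in the choice, B2m had 41.5, 15.3, 31.6, 21.1, 27.9, 27.3 and 47.2 CPM with g4 in animals 17 to 23. With the empty vector it had 19.8, 10.3, 38.5, 17.9, 30.3, 0 and 10.8 CPM. The groups overlapped widely. The g4 side was higher in 5 of 7 animals and lower in animals 19 and 21. The library of animal 22 without a count allows up to 5.67 CPM (3 counts).

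The means were 30.3 ± 11.1 CPM with g4 (118 counts) and 18.2 ± 13.0 CPM with the empty vector (51 counts; SD, n = 7 each). In the same libraries the summed astrocyte markers (10 of 10 detected) were higher with g4 in 7 of 7 animals, from 978 to 2505 CPM against 704 to 1370 CPM. The inhibitory neuron marker sum was higher with g4 in 2 of 7 animals, with means of 2512 ± 547 and 2912 ± 397 CPM (SD), and the part of either list in the B2m values was not tested. The edgeR log2 fold change of B2m was 0.68 ± 0.51 (adjusted p = 0.849), a fold of 1.61 with a 95% interval from 0.802 to 3.21, so that no difference was shown and a 2.27-fold one lies inside the interval. Here edgeR called 0.0599% of 5011 genes (0.02% higher and 0.0399% lower), and B2m was not among them. For B2m alone, a two-sided exact permutation test over the libraries gave p = 0.0717, and one over the signs of the 7 within-animal differences gave p = 0.0938, with a mean log2 difference of 0.87. Without the g4 library of animal 19 the g4 mean was 30.0 ± 12.1 CPM (n = 6) and the unpaired exact permutation p was 0.114. The difference between the g4 effects of the 2 fractions was -0.48 ± 0.55 on the log2 scale. It holds the choosing contrast and is given without a test, and under limma's voom its sign turned (0.13).

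**Figure D2:**
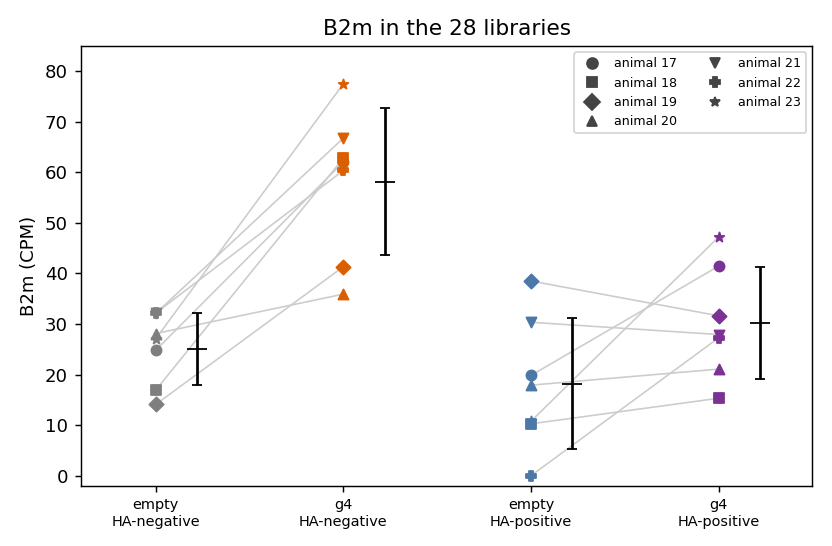
B2m in CPM for each of the 28 libraries, by group. Points are libraries, symbols are animals, grey lines join the hemispheres of an animal within a fraction, and black bars are mean ± SD of 7 libraries. The HA-negative groups, whose contrast led to the choice of B2m, do not overlap (14.1 to 32.2 against 35.9 to 77.5 CPM). The HA-positive groups do (0 to 38.5 against 15.3 to 47.2 CPM).

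Between fractions, the mean level of B2m was lower in HA-positive nuclei with either vector. Averaged over both vectors, its log2 fold change was -0.69 ± 0.28 (adjusted p = 0.0863, edgeR), which missed the threshold of 0.05. This average gives both vectors equal weight. It holds the HA-negative libraries used in choosing, so it is not fully independent of the choice. In this comparison 13.7% of 7197 genes were called, 6.63% as higher and 7.04% as lower. DESeq2 (adjusted p = 0.0320, 15.9% of genes called), limma's voom (adjusted p = 0.0165, 14.5% called) and edgeR without animal 19 (-0.93, adjusted p = 0.0282) put B2m past the threshold. In 13 of 16 alternatives it stayed uncalled. Among these was edgeR without only the g4 HA-positive library of animal 19 (-0.69, adjusted p = 0.0990).

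With each vector taken alone, the comparison shares its HA-negative libraries with the contrast that led to the choice, so these values are not independent of it. B2m led that contrast with higher values in g4 than in empty HA-negative nuclei. The choice therefore favours the direction seen with g4 and works against that seen with the empty vector. The gap between the vectors is not read for this reason. The adjusted p, the call and the count of animals with g4 are therefore a description, and no difference is read from them. With g4, B2m was lower in HA-positive nuclei in 7 of 7 animals, with a log2 fold change of -0.93 ± 0.28 (adjusted p = 0.0374, edgeR), where 6.4% of 6264 genes were called, 3.32% as higher and 3.08% as lower. That call was lost when animal 17, 18, 20, 21, 22 or 23 was left out (adjusted p from 0.0630 to 0.141). With the empty vector, B2m was lower in 6 of 7 animals and higher in animal 19, and its log2 fold change was -0.42 ± 0.51 (adjusted p = 0.719, edgeR), where 7.01% of 5538 genes were called, 3.5% in each direction.

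Ordered by mean, B2m was highest in g4 HA-negative nuclei, followed by g4 HA-positive, empty HA-negative and empty HA-positive nuclei. Each neighbouring pair in this order overlapped in range. The middle pair differed by 5.23 CPM, less than either group's SD.

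Microglia, a cell type known for high class I expression, differed more between the sorted fractions than B2m did. Summed over the 18 markers, the mean was 18.0-fold higher in HA-negative than in HA-positive nuclei with the empty vector, where B2m differed 1.37-fold. With g4 the marker sum differed 7.12-fold, or 23.1-fold without the library of animal 19, and B2m 1.92-fold. Ctss and Csf1r, the 2 microglia markers with the most counts, had means of 8.34 and 6.33 CPM in empty HA-positive and 87.1 and 83.2 CPM in empty HA-negative libraries. In the empty HA-positive group 8 markers were at 0 in all 7 libraries (Cx3cr1, P2ry12, C1qa, C1qc, Fcrls, Gpr34, Siglech and Tyrobp). The other 10 were detected in that group, and B2m had a count in 6 of the 7 libraries. The part of microglia in the B2m levels of either fraction was not tested. Endothelial markers, the other cell type known for class I, summed to at most 47.3 CPM in any library, and 0 of 12 passed the filter.

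**Figure D3:**
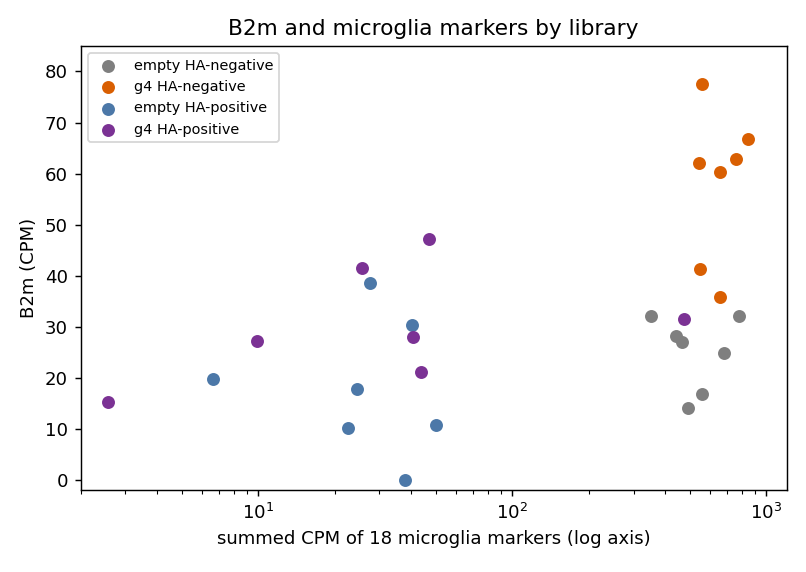
B2m in CPM against the summed CPM of 18 microglia markers (log axis), 1 point per library, coloured by group. HA-positive libraries hold B2m at 0 to 47.2 CPM with marker sums of 2.55 to 50.3 CPM, apart from the g4 library of animal 19 at 473 CPM.

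H2-D1 is a classical class I heavy chain. Its mean stood at 9.87 ± 7.79 CPM in g4 HA-positive, 9.90 ± 9.82 in empty HA-positive, 9.68 ± 8.31 in g4 HA-negative and 9.90 ± 10.6 in empty HA-negative libraries (SD, n = 7 each). In HA-negative nuclei it had 7.5, 6.3, 0, 13.2, 7.0, 7.4 and 26.4 CPM with g4 and 0, 22.6, 0, 17.9, 3.6, 22.7 and 2.6 CPM with the empty vector in animals 17 to 23. It was higher with g4 in 3 animals, lower in 3 and at 0 on both sides in animal 19. The ratio of pooled counts, 39 with g4 and 36 with empty, was 1.10 with a 95% interval from 0.679 to 1.77. In HA-positive nuclei the ratio was 1.24 (0.751 to 2.08), from 44 and 27 counts. Both intervals cover counting error only, and both hold 1. Without the library of animal 19 the g4 HA-positive mean was 9.69 ± 8.52 CPM (SD, n = 6).

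H2-K1, the other classical heavy chain, was at 0 in all 7 empty HA-positive libraries, which allows up to 1.01 CPM for the group (3 counts). With the empty vector its HA-negative libraries had 27.1, 3.8, 6.0, 2.6, 0, 0 and 6.4 CPM in animals 17 to 23, from 23 counts, of which 12 came from animal 17. With the floor of 3 counts in place of 0, H2-K1 was 5.68-fold lower in empty HA-positive than in empty HA-negative nuclei. The 95% counting interval of the actual counts reached down to 4.26-fold. Without animal 17 these values were 2.74 and 1.88. It failed the low-count filter. In the fit without that filter, added after seeing the data, its adjusted p was 0.0215 (edgeR, fitted log2 fold change -4.74, which rests on the prior count), where 3.72% of 17753 genes were called. That call was lost with the animal as a replicate block (0.223), with DESeq2 (0.124), with voom (0.157), without the libraries under 10000 genes (0.0852) and without animal 17 (0.169), 19 (0.0535), 20 (0.0530) or 23 (0.0505). Averaged over both vectors the same fit gave an adjusted p of 0.00618 for H2-K1 (8.09% of 19569 genes called), and that call was lost with DESeq2 (0.0519) and without animal 17 (0.0732). In the same empty HA-positive group 8 of 18 microglia markers were at 0 and 10 were detected, and the part of microglia in the result was not tested.

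With the g4 vector, H2-K1 had 2.0, 10.2, 0, 0, 9.8, 0 and 0 CPM in HA-positive nuclei of animals 17 to 23 (12 counts). The corresponding HA-negative libraries had 7.5, 0, 6.9, 5.7, 4.2, 4.4 and 16.5 CPM (27 counts). The ratio of pooled counts, HA-positive over HA-negative, was 0.451 (0.208 to 0.921), and the adjusted p without the filter was 0.543. With the floor of 3 counts in place of 0 for the empty HA-positive group, H2-K1 was 3.04-fold higher in g4 HA-positive nuclei. The 95% counting interval of the actual counts reached down to 2.11-fold. Only 3 of 7 g4 libraries had a count. Without animal 21, which gave 7 of the 12 counts, these values were 1.35 and 0.740, and without animal 18 they were 1.88 and 1.21. The adjusted p of the edgeR fit without the filter was 0.320. In HA-negative nuclei the pooled ratio of g4 to empty was 1.19 (0.656 to 2.17). Animal 19's g4 library of HA-positive nuclei, which had the highest microglia marker sum of its group, held 0 counts of H2-K1, and without it the g4 HA-positive mean was 3.66 ± 4.97 CPM in place of 3.14 ± 4.74 (SD).

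Tap1, a subunit of the peptide transporter, was near the detection limit, with 24 counts in 28 libraries. It had 10 counts in g4 HA-positive, 2 in empty HA-positive, 8 in g4 HA-negative and 4 in empty HA-negative libraries. The 10 counts came from animals 21, 22 and 23, whose libraries all held Xist, at 5.6, 5.0 and 9.9 CPM. In the other groups animals 17, 19 and 20 had counts as well. The pooled ratio of g4 to empty was 3.80 (0.810 to 35.7) in HA-positive and 2.02 (0.542 to 9.18) in HA-negative nuclei, and both intervals hold 1. The g4 HA-positive mean was 2.93 ± 3.97 CPM with and 3.41 ± 4.11 CPM without the library of animal 19 (SD).

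Tapbp, whose product tapasin links the heavy chain to the transporter, had means of 7.86 ± 7.12 to 10.4 ± 11.3 CPM in the 4 groups (SD, n = 7 each). In HA-negative nuclei it had 0, 15.7, 8.6, 5.7, 13.9, 8.8 and 11.5 CPM with g4 and 0, 15.0, 20.1, 5.1, 7.1, 3.8 and 3.9 CPM with the empty vector. The g4 side was higher in 5 animals, lower in animal 19 and equal in animal 17. The pooled ratios of g4 to empty were 1.17 (0.706 to 1.96) in HA-negative and 1.41 (0.865 to 2.34) in HA-positive nuclei. The highest of the 4 means, 10.4 CPM in g4 HA-positive libraries, was 9.08 ± 11.7 CPM without the library of animal 19 (SD, n = 6). Zbtb22 overlaps Tapbp on the same strand over 3422 bases with means of 251 to 582 CPM, so some Tapbp counts could not be assigned with certainty.

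**Figure D4:**
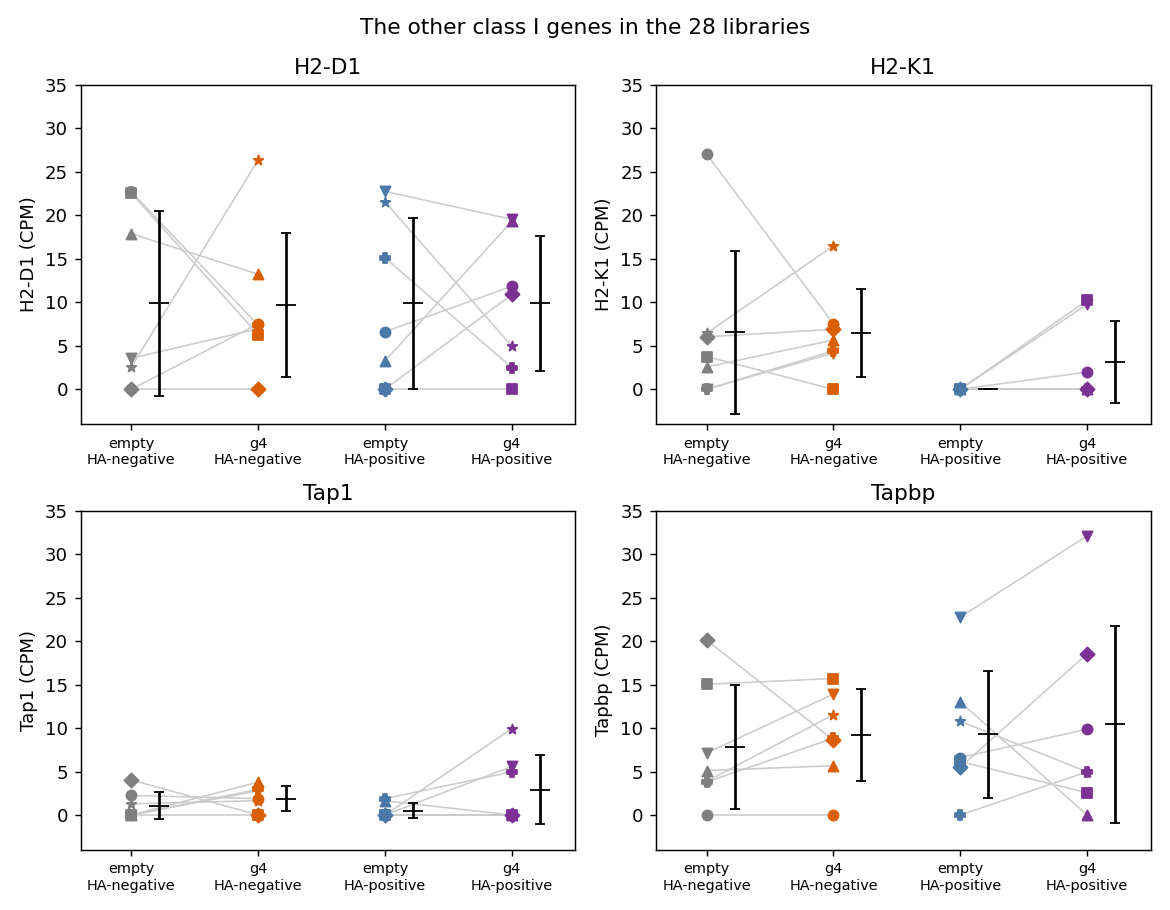
H2-D1, H2-K1, Tap1 and Tapbp in CPM for each of the 28 libraries, drawn as for B2m (points are libraries, grey lines join the hemispheres of an animal, bars are mean ± SD of 7 libraries). The groups overlap in all 4 panels, and H2-K1 is at 0 in all empty HA-positive libraries.

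In HA-positive nuclei the pooled ratio of g4 to empty for B2m was 1.76, with a counting interval from 1.26 to 2.49 that leaves out the spread between libraries, and neither B2m nor H2-K1 was called by edgeR there. Per kilobase of annotated exon, the level of B2m in g4 HA-negative nuclei was 67.6 ± 16.9 CPM (SD), against 3.75 ± 3.22 for H2-D1, 2.20 ± 1.72 for H2-K1, 2.53 ± 1.46 for Tapbp and 0.340 ± 0.265 for Tap1. In empty HA-negative nuclei the same measure was 29.1 ± 8.22 CPM for B2m and 3.84 ± 4.12 for H2-D1. No 50-base stretch of the annotated B2m transcript occurs in another gene, while 12.8% of those of H2-D1 and 9.63% of those of H2-K1 do, mostly in other class I heavy chains, so counts of both heavy chains are uncertain. Patl2, which overlaps B2m on the opposite strand without sharing exon bases, had 2 counts in all 28 libraries.

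**Figure D5:**
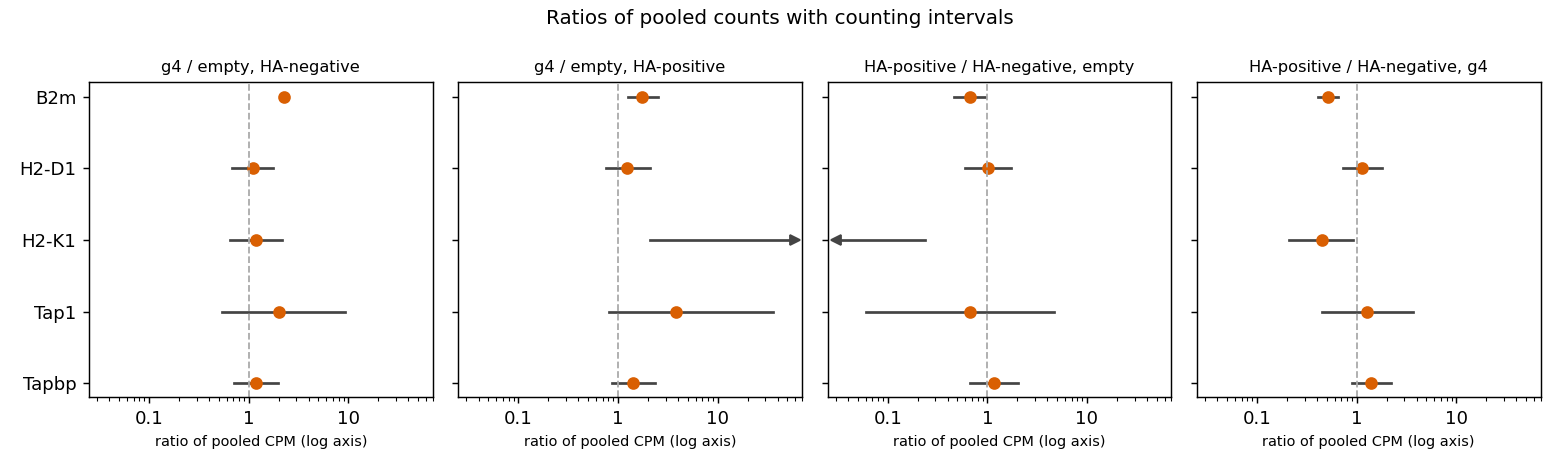
Ratios of pooled CPM for the 5 genes in 4 comparisons (log axis). Points are ratios and lines are 95% exact conditional intervals for counting error, without the spread between animals. An arrowhead marks an interval with no bound on that side, where H2-K1 had 0 counts in the empty HA-positive group. B2m in HA-negative nuclei, the value used in choosing, is drawn at 2.28 without an interval.

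Of 18 other class I heavy chains, 0 passed the filter in any comparison. The 3 with the most counts were H2-T22 with 68 counts, H2-T23 with 65 and Fcgrt, the neonatal Fc receptor, with 20 over all libraries. H2-T23 had 7.83 ± 7.01 CPM in g4 and 4.35 ± 3.39 CPM in empty HA-negative libraries, a difference smaller than the larger SD. H2-T22 had 4.31 ± 2.27 and 5.07 ± 7.22 CPM there.

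Of 14 genes of class I peptide loading and processing, 6 were tested and 0 were called in any of the comparisons. Canx, Lnpep and Calr, which encode the chaperone calnexin, an aminopeptidase that trims peptides and the chaperone calreticulin, had the most counts. In HA-negative nuclei 6 of 6 had a positive log2 difference of g4 from empty, with a median of 0.18 beside a value near 0 over all genes tested. Canx stood at 0.12 ± 0.12, Lnpep at 0.17 ± 0.14 and Calr at 0.09 ± 0.17 (SE, adjusted p = 0.999 for each, edgeR). In HA-positive nuclei the median was 0.07 beside -0.01, and Calr stood at -0.55 ± 0.24 (adjusted p = 0.730, edgeR). The immunoproteasome subunits Psmb8 and Psmb9, which interferon induces, had 10 and 4 counts in all libraries and were not tested.

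Of the regulators of class I transcription, Irf2, an interferon regulatory factor, and Rfxap, a subunit of the RFX complex that binds MHC promoters, were not called in any comparison in which they were tested. Irf2 had means of 16.0 ± 14.4 to 21.0 ± 13.6 CPM in the 4 groups (SD, n = 7 each), and averaged over vectors its log2 difference of HA-positive from HA-negative nuclei was -0.21 ± 0.36 (adjusted p = 0.788, edgeR). Rfxap stood at 0.91 ± 0.55 for HA-positive against HA-negative nuclei with the empty vector (adjusted p = 0.392, edgeR), with 29.9 ± 24.7 and 16.2 ± 9.43 CPM.

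Interferon response genes gave thin counts: 1 of 26, Rnf213, was tested in any comparison, and it was not called. Summed over the 26, the empty HA-positive library of animal 23 stood apart at 478 CPM, with 20 genes detected. The rest of its group had 19.8 to 91.0 CPM, and g4 HA-positive libraries had 44.6 to 233 CPM. The part of these sums in the B2m and H2-K1 values was not tested. Rnf213 stood at -0.08 ± 0.66 on the log2 scale for g4 against empty in HA-positive nuclei (adjusted p = 0.992, edgeR), and at 1.30 ± 0.49 for HA-positive against HA-negative nuclei averaged over vectors (adjusted p = 0.0776, edgeR). Ifit2, which did not pass the filter, had 26.6 ± 17.0 CPM in empty HA-positive and 7.96 ± 4.56 CPM in g4 HA-positive libraries, against 5.43 ± 5.31 and 5.56 ± 6.13 CPM in g4 and empty HA-negative ones. Samd9l had 6.13 ± 3.24 and 3.08 ± 2.40 CPM in g4 and empty HA-negative libraries. Class II genes, which mark professional antigen-presenting cells, were sparse: 0 of 7 passed the filter, and H2-DMa, Cd74 and H2-Aa had 58, 30 and 16 counts in all. Of 5 genes listed for class I receptors and chains of the T cell receptor complex 0 passed. Pirb, a receptor for class I molecules, had 9 counts in g4 HA-negative libraries and 2 in the other 3 groups together. Lilrb4a and Cd3g, the latter a chain of the T cell receptor complex, had 9 and 6 counts in all. Lymphocyte markers summed to at most 37.6 CPM in g4 and 33.3 CPM in empty HA-negative libraries, and to at most 14.2 CPM in HA-positive ones, with 0 of 12 tested.

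By correlation of log2 CPM over the 28 libraries, the genes most like B2m among 7196 were Etv1 (Pearson r = 0.82), Ptp4a1_2 (0.75), Dnajb12 (0.74), Zdhhc23 (0.73) and Fry (0.73). Etv1, a transcription factor of the ETS family, had 103 ± 12.3 CPM in g4 HA-negative, 69.4 ± 18.0 in empty HA-negative, 91.2 ± 29.2 in g4 HA-positive and 58.2 ± 31.7 in empty HA-positive libraries. Within the 14 HA-negative libraries, with each vector group centred on its mean, the 5 were Nap1l1 (0.87), Atp5g3 (0.87), Vps33a (0.82), Gm25313 (0.81) and Ndufa4 (0.80) of 6261. No gene stood on both lists. The other members had r of 0.04 (H2-D1), 0.25 (H2-K1), 0.14 (Tap1) and 0.24 (Tapbp) with B2m over the 28 libraries, which is weak in counts this sparse. These libraries share animals, depth and the sort, so the values are a description with no p.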

How the data were processed

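Nuclear RNA of 28 libraries was counted by the authors, and what they deposited are raw counts, per the labels, with every value a whole number. Empty cells were read as 0. Of 41550 entries, 1 named no gene, held 0 counts and was left out. The genome build is GRCm38 per the submitters' processing notes. Aligner, counting program and strand setting: not given in the sources used here. Groups and animals came from the sample titles, and sample descriptions tied samples to columns. For 3 animals, 21 to 23, column numbers are 1 higher (22 to 24), which touches 12 of 28 libraries.

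Genes were tested with the two-sided quasi-likelihood test of edgeR 4.0.16 (R 4.3.3), after filterByExpr with the groups given, with TMM factors and a robust fit. A call needed an adjusted p (Benjamini-Hochberg over all genes tested) under 0.05. The script was tested on simulated data. CPM use TMM factors over all 28 libraries, and log2 CPM a prior count of 2. SD is over libraries, SE comes from the fit. Pooled ratios have 95% exact conditional intervals and floors of 3 counts, for counting error only. DESeq2 1.42.0 and limma 3.58.1 were alternatives, with other scalings, no filter, libraries or animals left out, and the animal as a block. Positions came from GENCODE vM21 (41474 identifiers matched), promoters from RefSeq (5 of 5 matched).

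Libraries with the same number come from the same animal, which pairs them by design. Correlations of their deviations from the group means ran from -0.10 to 0.13. The 5 genes and all gene lists were chosen with earlier results of these data known. Text names the 5 genes, genes called within the class I, class II, regulator, receptor and interferon lists or else the 3 with the most counts per list, the top microglia markers, and the 5 genes most correlated with B2m in each of 2 sets of libraries. Psmb8, Psmb9, Patl2, Zbtb22 and Gm19412 were added after their values were seen. Some results that this rule would name are not reported here.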

Additional observations from a re-analysis of the deposited data

Results flagged for a closer look

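In the empty HA-negative group, H2-K1 in animal 17 stood far above the other 6 libraries, with 27.1 CPM against 6.44 CPM in the next highest. The gap took 0.762 of the group's range, above Dixon's 95% critical value for 7 samples. Chance marks about 1 in 20 groups, and 19 groups of libraries were examined over the 5 genes. That library had 430964 counts in all.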

How the results depend on the processing

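For B2m in HA-negative nuclei the log2 difference of g4 from empty ran from 1.09 to 1.31 over the 14 alternatives tried, given without a test. In HA-positive nuclei it ran from 0.46 to 1.32 over 13, and B2m was called in none that gave an adjusted p (DESeq2 gave none for it). B2m had too few counts for the filter in HA-positive nuclei without animal 19, its g4 library or animal 21, and there the fit without a filter, chosen after seeing the data, gave 1.01, 0.72 and 0.95. With the empty vector, HA-positive against HA-negative, it also had no value without animal 21. With the animal as a replicate block, a paired fit, B2m stood at 1.20 in HA-negative nuclei, at 0.82 in HA-positive nuclei, and at -0.71 (adjusted p = 0.0951) between fractions averaged over vectors, and the block changed no call of B2m. Between fractions averaged over vectors, B2m was past the threshold with DESeq2 (-0.71), voom (-1.01) and without animal 19, and leaving out each animal gave -0.93 to -0.52. B2m stayed uncalled in 13 of 16 alternatives there, also without only the g4 HA-positive library of animal 19 (-0.69, adjusted p = 0.0990, edgeR). With g4 its call was lost without a scaling factor (-0.94, adjusted p = 0.0818), without a filter (-0.94, adjusted p = 0.0677) and without libraries under 10000 genes (-0.85, adjusted p = 0.0532), and leaving out each animal gave -1.01 to -0.82. The causes were not tested.

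Counts of called genes moved too. In HA-positive nuclei, g4 against empty, 3 became 1 with the block, 28 without a filter, 11 with DESeq2, 5 without the g4 library of animal 19, 0 without libraries under 10000 genes, and 1 to 4 without each animal. In HA-negative nuclei 0 became 1 with DESeq2. Between fractions, 984 became 1584 without a filter when averaged, 388 became 661 without a filter and 251 to 371 without each animal with the empty vector, and 401 became 259 without a scaling factor and 218 to 422 without each animal with g4. The count of 0 genes for the difference of the effects became 3 without a filter. H2-K1, averaged over vectors in the fit without a filter (-2.92, adjusted p = 0.00618), lost its call with DESeq2 (adjusted p = 0.0519) and without animal 17 (adjusted p = 0.0732). For the other 4 genes, group mean differences moved by less than 1 SD in 180 of 180 alternatives. Depth limits all statements on H2-K1, Tap1 and the lists with 0 tested genes.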
